A study of Mus musculus with 4 samples.

Results

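The 26S proteasome genes of mouse Th17 cells were examined: every protein-coding gene whose symbol is Psm, a letter from a to g and a number. The rule took 50 of the 52636 genes of the table, 48 of which had a mean of at least 1 FPKM (fragments scaled to gene length and library size) and entered the test. Messenger RNA had been sequenced from in vitro polarized Th17 cells of the C57BL/6 strain, with 2 libraries per genotype (PP2A WT and PP2A cKO, the conditional knockout). PP2A removes phosphate from serine and threonine and pairs a catalytic core with scaffold and regulatory proteins. Which of its genes was deleted, and by which Cre, is not said in the labels used here, so the genotypes are taken from the labels. All 4 libraries shared the same treatment: naive T cells were grown for 2 days with 3 irradiated antigen presenting cells each, soluble antibodies to CD3 and to CD28 at 2 µg/ml, 2 ng/ml TGFβ1, 20 ng/ml IL-6 and neutralizing antibodies to IL-4 and IFNγ at 10 µg/ml. They then received 50 ng/ml PMA and 500 ng/ml ionomycin for 4 h. The submitters call the replicates biological, without saying whether they were separate mice or cultures, so a p-value measures the spread between these libraries only.

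The proteasome degrades proteins tagged with ubiquitin. Its 20S core is a barrel of alpha rings and beta rings, whose beta subunits Psmb5, Psmb6 and Psmb7 cut chymotrypsin-like, caspase-like and trypsin-like sites. The 19S cap binds, unfolds and feeds in the substrate with a ring of ATPases and a lid. Interferons induce 3 replacement subunits, Psmb8 for Psmb5, Psmb9 for Psmb6 and Psmb10 for Psmb7, which make the immunoproteasome, and the activator PA28, a ring of Psme1 (alpha) and Psme2 (beta). These forms favour peptides that class I MHC molecules present, and immune cells carry them without interferon as well.

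The libraries held 19347055 and 18517487 reads in WT and 20387948 and 19521977 in cKO, so each tested proteasome gene rested on at least 254 reads in every library. The catalytic PP2A gene Ppp2ca stood at 42.2 and 50.1 FPKM in WT and 41.8 and 34.5 in cKO, with an adjusted p of 0.360, and none of 4 PP2A core genes passed the test. An RNA level does not test a deletion that leaves the transcript in place. All 7 T cell markers were well expressed, with a summed level of 814 to 912 FPKM. Of the 5 B cell markers all were under 1 FPKM in every library, as were 8 of the 9 myeloid and dendritic markers. The ninth, Cst3, lay at 61.9 to 77.1 FPKM. Cd74, the class II chaperone that activated cells also make, was 37.8 and 27.5 FPKM in WT and 67.0 and 100.4 in cKO (adjusted p = 0.0757), while of the other class II markers H2-Ab1 lay at 12.5 to 17.5 FPKM, H2-Eb1 at 1.08 to 1.28 and H2-Aa under 1. Its part in the results below was not tested.

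The promoters of 4 interferon-inducible members show how differently these genes are laid out. Each runs from 250 bases before to 30 bases after the RefSeq start site, on GRCm38.p6, 5′ to 3′ on the strand of the gene. Capitals mark matches, on either strand, to the gamma-activated site (GAS, TTCNNNGAA) or the core of the interferon-stimulated response element (ISRE, GAAANNGAA). The windows lie at chr17:34197945-34198224 on the plus strand (Psmb8), chr17:34187301-34187580 on the minus strand (Psmb9), chr14:55578244-55578523 on the plus strand (Psme1) and chr14:55591072-55591351 on the minus strand (Psme2).
Psmb8: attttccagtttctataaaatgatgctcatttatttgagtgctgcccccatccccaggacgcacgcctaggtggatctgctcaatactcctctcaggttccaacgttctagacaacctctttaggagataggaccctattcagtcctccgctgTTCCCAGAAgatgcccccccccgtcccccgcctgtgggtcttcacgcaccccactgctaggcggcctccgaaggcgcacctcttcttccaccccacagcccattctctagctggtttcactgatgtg
Psmb9: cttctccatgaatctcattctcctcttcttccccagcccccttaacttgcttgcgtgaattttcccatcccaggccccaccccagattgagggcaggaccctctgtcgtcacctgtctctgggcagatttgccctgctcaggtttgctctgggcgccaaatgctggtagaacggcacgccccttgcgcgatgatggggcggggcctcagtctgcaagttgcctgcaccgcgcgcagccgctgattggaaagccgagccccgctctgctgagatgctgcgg
Psme1: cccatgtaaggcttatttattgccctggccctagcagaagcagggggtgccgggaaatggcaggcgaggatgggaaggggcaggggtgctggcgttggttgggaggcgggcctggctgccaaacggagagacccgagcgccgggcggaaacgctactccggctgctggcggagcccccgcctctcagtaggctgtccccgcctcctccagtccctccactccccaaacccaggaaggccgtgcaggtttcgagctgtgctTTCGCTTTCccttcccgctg
Psme2: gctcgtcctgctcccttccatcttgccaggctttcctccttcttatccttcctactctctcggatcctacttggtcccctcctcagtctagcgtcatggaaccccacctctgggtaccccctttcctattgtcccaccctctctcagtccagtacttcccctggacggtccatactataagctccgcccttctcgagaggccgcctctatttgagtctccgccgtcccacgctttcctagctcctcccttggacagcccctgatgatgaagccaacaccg

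Psmb8 held 1 GAS match, TTCCCAGAA, at bases -97 to -89 from the start, and Psme1 held 1 ISRE core on the reverse strand at bases 11 to 19 after it. The windows of Psmb9 and Psme2 held neither. No window is given here for Psmb10, and only 42 of the 50 members had one to search, so its promoter is not described. Psmb9 has its start 226 bases from that of Tap1, the peptide transporter gene transcribed the other way, and 275 bases of the 300-base windows of the pair coincide. Psme1 and Psme2 lie close together on chromosome 14 and point at each other, their starts 12607 bases apart. In the deposited coordinates (GRCm38) the genes lie at chr17:34197721-34201454 (Psmb8), chr17:34181988-34187764 (Psmb9), chr8:105935735-105938444 (Psmb10), chr14:55578123-55581529 (Psme1) and chr14:55587441-55591113 (Psme2). Their deposited 5′ ends are 12 to 474 bases from the RefSeq start sites of the 4 printed windows. Over the 42 members with a 300-base window (250 before and 50 after the start), the ISRE core occurred in 6 (14.3%, against 8.56% of all 32851 windows) and GAS in 3 (7.14% against 8.30%). The core of the antioxidant response element (TGANNNNGC, both strands), the site family of the proteasome regulator Nfe2l1, occurred in 23 (54.8% against 41.3%), and CCAAT in 15 (35.7% against 37.4%). These are letter matches and not binding.

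The 48 tested genes spanned a 33.8-fold range of mean FPKM, from 5.46 for the core chaperone Psmg3 to 185 for the 19S ATPase Psmc5. Subunits of the core and cap were abundant. The tested alpha ring genes lay between 27.8 and 139 FPKM, the structural beta genes (Psmb1 to Psmb4) between 70.1 and 147, the ATPases between 32.6 and 185 and the lid genes between 26.8 and 118. Chaperones that help assembly were scarcer, at 5.76 to 18.4 FPKM for the base chaperones and 5.46 to 37.8 for the core chaperones. The immunoproteasome genes averaged 9.95 (Psmb9) to 48.6 FPKM (Psmb8), and their RNA was present in both WT libraries. Psme1 and Psme2 averaged 71.8 and 71.5 FPKM. The 2 members below the filter were Psma8, the testis form of an alpha subunit, with 1 to 6 reads in a library, and Psmb11, the catalytic subunit of thymic cortical epithelium, listed at 0 in all 4 libraries. All members together took 0.704% and 0.726% of the reads in WT and 0.780% and 0.714% in cKO, with cKO replicate 2 between the WT values.

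**Figure D1:**
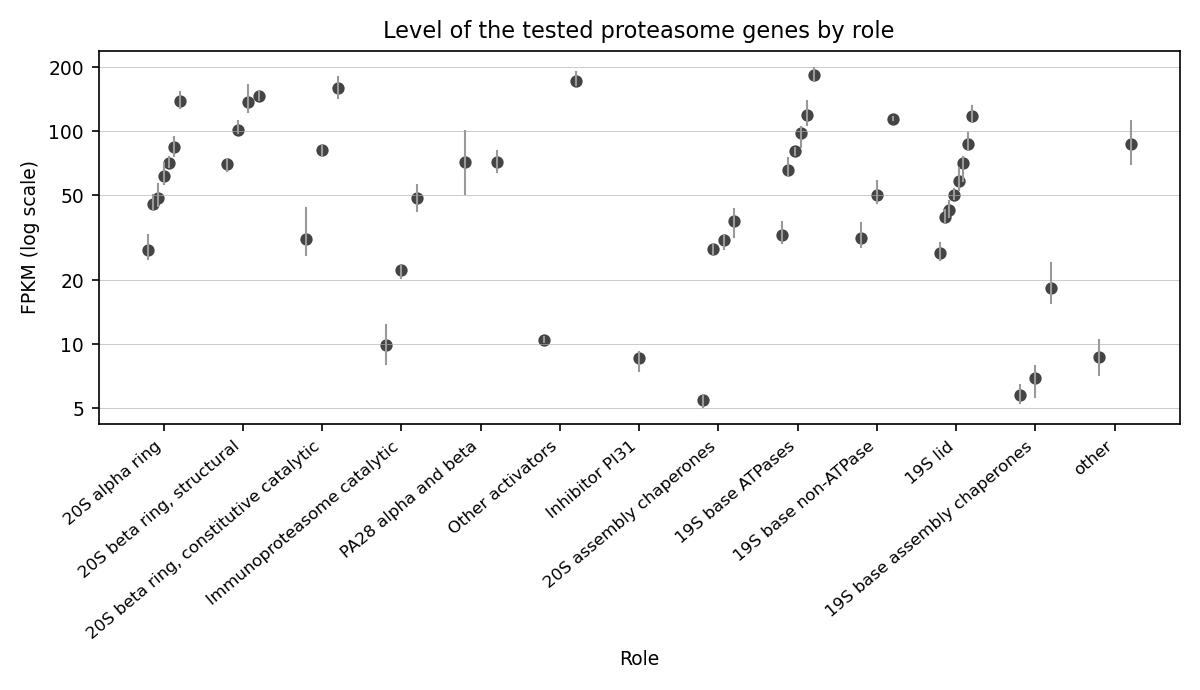
Mean FPKM of the 48 tested proteasome genes (points, log axis) by role, with thin lines from the lowest to the highest of the 4 libraries. Psmc5 is the highest point at 185 FPKM and Psmg3 the lowest at 5.46 FPKM.

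No proteasome gene passed the main test, limma on log2(FPKM + 1) with Benjamini-Hochberg adjustment over all 10562 tested genes: 0 of 48 were called in either direction. Of all tested genes, 0.814% were called higher and 0.256% lower in cKO. At an unadjusted p under 0.05, 5 members were higher (Psme2, Psme2b, Psmb9, Psme1 and Psmg4) and 1 was lower (Psmc3ip), or 10.4% and 2.08% of members, against 9.56% and 10.3% of all tested genes. The share on the higher side is close to the background. Both cKO values lay above both WT values in 21 members (43.8%, against 27.2% of all tested genes) and under them in 9 (18.8%, against 28.7%). The log2 fold change was positive in 36 of the 48 members, with a median of 0.11, against a median of -0.003 over all tested genes. The members' median lay 0.11 above that of all tested genes. TPM scaling lowered all genes together (median -0.09), so that 27 members were positive, but the members' median was still 0.11 above that of all genes. With quantile normalization 29 were positive and the gap was 0.05. In bulk RNA, a change in the mix of cells and a change in RNA per cell cannot be told apart.

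Psme2, the beta subunit of PA28, had the highest log2 fold change of any member. It measured 56.0 and 50.7 FPKM in WT and 100.7 and 78.5 in cKO. Both cKO libraries were above both WT libraries, replicate 1 more so. The means were 53.3 ± 3.76 and 89.6 ± 15.7 FPKM (SD, n = 2 each), a 1.68-fold ratio, and the log2 fold change was 0.73 ± 0.15 (SE) with a limma adjusted p of 0.0883. The gene was called when only the 9231 protein-coding genes entered the limma fit (adjusted p = 0.0458), a setting that called 2.81% of genes higher, and by voom on recovered read counts (adjusted p = 0.0328), which called 2.52% higher. In no other setting with all 4 libraries was it called. It was the sole member called by either. Without cKO replicate 2 its log2 fold change was 0.91 and without cKO replicate 1 it was 0.55.

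Psme2b lies on chromosome 11 at 48945354 to 48946190 and is an intronless near-copy of Psme2. It is listed at 70.3 and 74.5 FPKM in WT and 111.8 and 92.8 in cKO, with a log2 fold change of 0.49 ± 0.13 (limma adjusted p = 0.129). Of its 738 windows of 100 bases, 52.03% occur letter for letter in Psme2, so the counting may have split reads between the genes and both values are uncertain. Their summed reads avoid that split: 3084 and 2899 in WT and 5511 and 4192 in cKO, in libraries of the similar depths given above. Reads matching both genes that the counting left out, if any, are missing from the sum. The groups do not overlap in the sum either.

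Psme1, the alpha subunit of the same ring, measured 64.2 and 64.5 FPKM in WT and 81.2 and 77.1 in cKO. The libraries of each genotype lay close together and did not overlap between genotypes. Its log2 fold change of 0.29 ± 0.09 had a limma adjusted p of 0.184. Together the PA28 genes took 0.0243% and 0.0239% of reads in WT and 0.0356% and 0.0307% in cKO. Psme3 (PA28 gamma), the nuclear activator that interferon does not induce, measured 167 and 169 FPKM in WT and 191 and 165 in cKO, so its groups overlapped (0.08 ± 0.12, adjusted p = 0.710). The large activator Psme4 measured 10.5 and 10.8 FPKM in WT and 10.2 and 10.4 in cKO (-0.04 ± 0.08, adjusted p = 0.824).

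Among the catalytic immunosubunits Psmb9 and Psmb8 were higher in both cKO libraries and Psmb10 was not, and none passed the test. Psmb9, the caspase-site replacement, measured 8.07 and 8.71 FPKM in WT and 12.3 and 10.7 in cKO. Its log2 fold change was 0.41 ± 0.11 (limma adjusted p = 0.127). Psmb9 overlaps Tap1 in the deposited coordinates and the strand setting of the counting is not given, so reads of the pair cannot be told apart there. Psmb8, the chymotrypsin-site replacement, measured 42.3 and 46.9 FPKM in WT and 55.9 and 49.3 in cKO. Its lowest cKO value stood just above its highest WT value, and the log2 fold change was 0.23 ± 0.11 (adjusted p = 0.331). Psmb10, the trypsin-site replacement, measured 22.5 and 23.3 FPKM in WT and 20.5 and 22.8 in cKO. Its groups overlapped and its log2 fold change was -0.08 ± 0.10 (adjusted p = 0.659). Over these genes and the PA28 pair, 4 of 5 had both cKO values above both WT values, as 27.2% of all tested genes did, and the median log2 fold change was 0.29. The median was 0.33 in cKO replicate 1 and 0.26 in replicate 2.

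**Figure D2:**
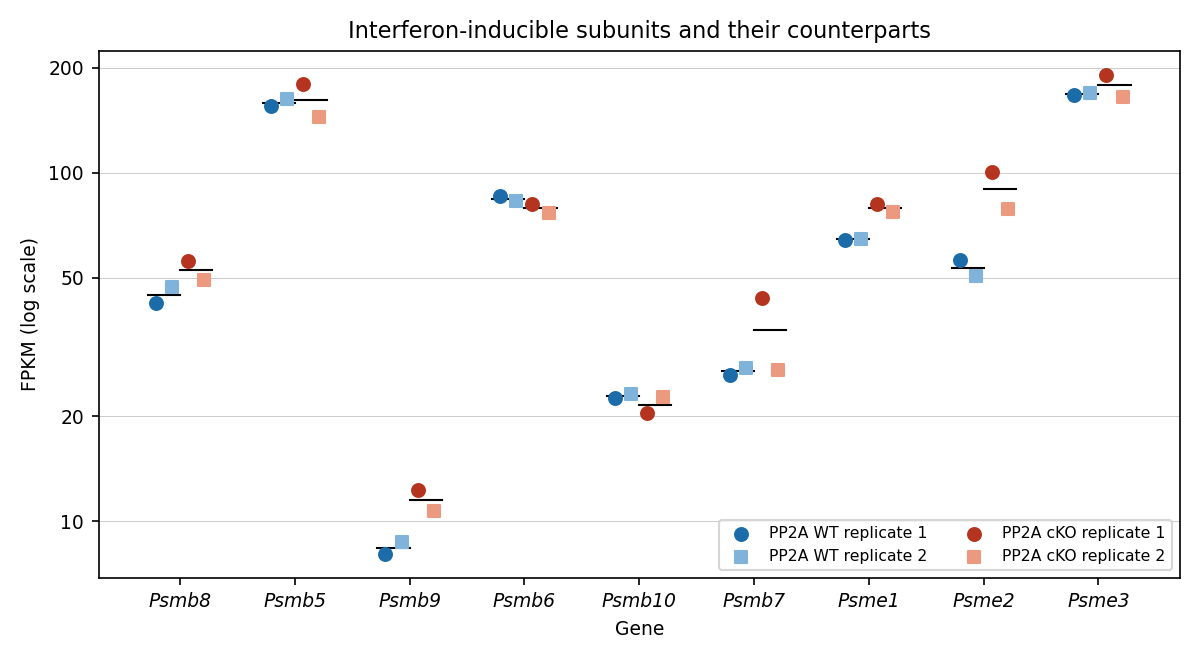
FPKM (log axis) of the inducible subunits and their counterparts in each library, with circles for replicate 1, squares for replicate 2 and lines at genotype means. Psme2 has the widest gap, 56.0 and 50.7 FPKM in PP2A WT against 100.7 and 78.5 in PP2A cKO, and Psmb10 overlaps.

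None of the counterparts in the standard core was higher in both cKO libraries. Psmb5 measured 155 and 162 FPKM in WT and 179 and 144 in cKO, with the cKO libraries on either side of WT and a log2 fold change of 0.02 ± 0.14 (limma adjusted p = 0.949). Psmb6 measured 85.4 and 83.2 FPKM in WT and 81.6 and 76.5 in cKO, lower in both cKO libraries by a small margin (-0.09 ± 0.10, adjusted p = 0.612). Psmb7 measured 26.3 and 27.6 FPKM in WT and 43.8 and 27.2 in cKO. Replicate 1 alone was high, and the log2 fold change of 0.34 ± 0.23 (adjusted p = 0.435) split into 0.68 in replicate 1 and 0.01 in replicate 2. Psmb7 overlaps Nek6 in the deposited coordinates. The difference of 0.67 between the cKO libraries was the widest of any member.

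The ratio of an inducible subunit to its counterpart within a library removes library-wide scaling. Psmb9 as a share of summed Psmb9 and Psmb6 FPKM was 8.63% and 9.48% in WT and 13.1% and 12.3% in cKO. On the log2 scale this ratio was 0.50 higher in cKO. The Psmb8 share beside Psmb5 was 21.4% and 22.4% in WT and 23.8% and 25.5% in cKO, a log2 difference of 0.21. Psme2 beside Psme3 went from 25.1% and 23.1% in WT to 34.5% and 32.2% in cKO, a log2 difference of 0.65, and Psme1 beside Psme3 from 27.8% and 27.6% to 29.8% and 31.8%, a difference of 0.21. In these 4 pairs both cKO libraries were above both WT libraries. Psmb10 beside Psmb7 went the other way, 46.1% and 45.7% in WT against 31.9% and 45.6% in cKO. Its log2 difference of -0.43 came from cKO replicate 1 (-0.83), where Psmb7 was high, and was -0.02 in replicate 2. Each ratio reached the smallest two-sided p that an exact permutation of 2 against 2 libraries allows, 0.333, and adjusted over the 5 ratios it was 0.333, so no ratio could pass.

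Shares within a pair depend on the length behind each FPKM value. The deposited gene lengths were a median of 1.52 times the longest coding transcript of GENCODE M21 (0.526 to 3.28 over the tested members). With the coding transcript length, a choice made after seeing the data, the Psmb8 share was 32.1% and 33.4% in WT and 35.1% and 37.2% in cKO. The Psmb10 share became 27.4% and 27.1% in WT and 17.1% and 27.0% in cKO. The level of a share therefore depends on the length used, which is the same in every library.

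**Figure D3:**
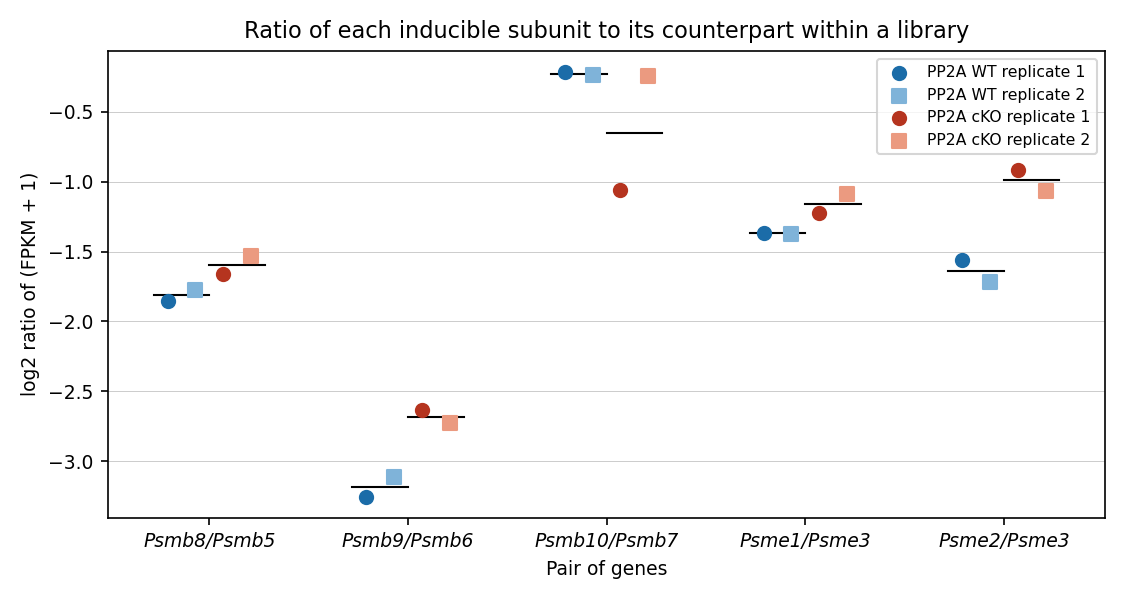
Log2 ratio of (FPKM + 1) of each inducible subunit to its counterpart in each library, with lines at genotype means. Both PP2A cKO libraries lie above both PP2A WT libraries in 4 pairs, and in Psmb10/Psmb7 only cKO replicate 1 stands away, 0.83 under the WT mean.

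The 31 constitutive subunits of the 20S and 19S particles had log2 fold changes from -0.18 (Psmd3) to 0.34 (Psmb7), with a median of 0.11. In 27 of the 31 the change was positive, as it was in 49.4% of all tested genes. None reached an unadjusted limma p under 0.05, against 9.56% of all tested genes on the higher and 10.3% on the lower side. All 7 tested alpha ring genes were slightly positive, from 0.02 for Psma7 (71.7 and 69.3 FPKM in WT, 75.5 and 67.7 in cKO) to 0.21 for Psma3 (25.1 and 26.2 in WT, 32.7 and 27.1 in cKO). The 4 structural beta genes lay between 0.08 for Psmb2 (98.1 and 98.8 FPKM in WT, 111 and 97.8 in cKO) and 0.13 for Psmb1 (128 and 133 in WT, 165 and 124 in cKO). Among the ATPases that unfold the substrate, Psmc1 had 0.22 (108 and 111 FPKM in WT, 140 and 117 in cKO) and Psmc4 had -0.16 (105 and 102 in WT, 84.3 and 101 in cKO). The 3 base subunits that are not ATPases, which include receptors for ubiquitin and its carriers, ran from -0.04 for Psmd2 (117 and 115 FPKM in WT, 113 and 114 in cKO) to 0.18 for Psmd1 (28.7 and 30.5 in WT, 37.0 and 30.5 in cKO). In the lid, which holds the deubiquitinase Psmd14, the range was -0.18 for Psmd3 (75.6 and 73.9 FPKM in WT, 58.2 and 74.9 in cKO) to 0.17 for Psmd12 (53.2 and 56.4 in WT, 67.3 and 56.4 in cKO). Among the members given by library, the sign of Psma7, Psmb1, Psmb2, Psmb5, Psmd3 and Psme3 changed in at least 1 setting. For Psmd3 and Psmb1 that was without cKO replicate 1, where they had 0.0031 and -0.074. Members not given by library changed sign as well. In that setting Psma4 went from 0.10 to -0.053 and Psma5 from 0.03 to -0.12.

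Chaperones and the inhibitor moved in both directions. Psmd10 (gankyrin), which holds an ATPase during base assembly, measured 15.6 and 16.0 FPKM in WT and 24.02 and 17.8 in cKO (0.37 ± 0.16, limma adjusted p = 0.277). Psmd9, another base chaperone, measured 7.87 and 7.47 in WT and 5.64 and 6.78 in cKO (-0.27 ± 0.11, adjusted p = 0.267). Both cKO libraries were on the same side for each, replicate 1 farther out. Psmg4, a chaperone of the alpha ring, measured 31.9 and 36.1 FPKM in WT and 43.2 and 39.9 in cKO (0.28 ± 0.11, adjusted p = 0.248). The other 3 core chaperones, Psmg1, Psmg2 and Psmg3, were each lower in both cKO libraries. Psmg2, with the lowest fold change of them, measured 32.2 and 31.9 FPKM in WT and 28.03 and 30.9 in cKO (-0.12 ± 0.10, adjusted p = 0.519). The inhibitor Psmf1 (PI31) measured 8.85 and 9.16 FPKM in WT and 7.52 and 8.97 in cKO (-0.12 ± 0.11, adjusted p = 0.565). Psmc3ip carries a matching symbol but is a partner of the recombinases of meiosis and no subunit. It measured 9.59 and 10.5 FPKM in WT and 7.63 and 7.20 in cKO (-0.39 ± 0.09, adjusted p = 0.112) and overlaps Mlx in the deposited coordinates.

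**Figure D4:**
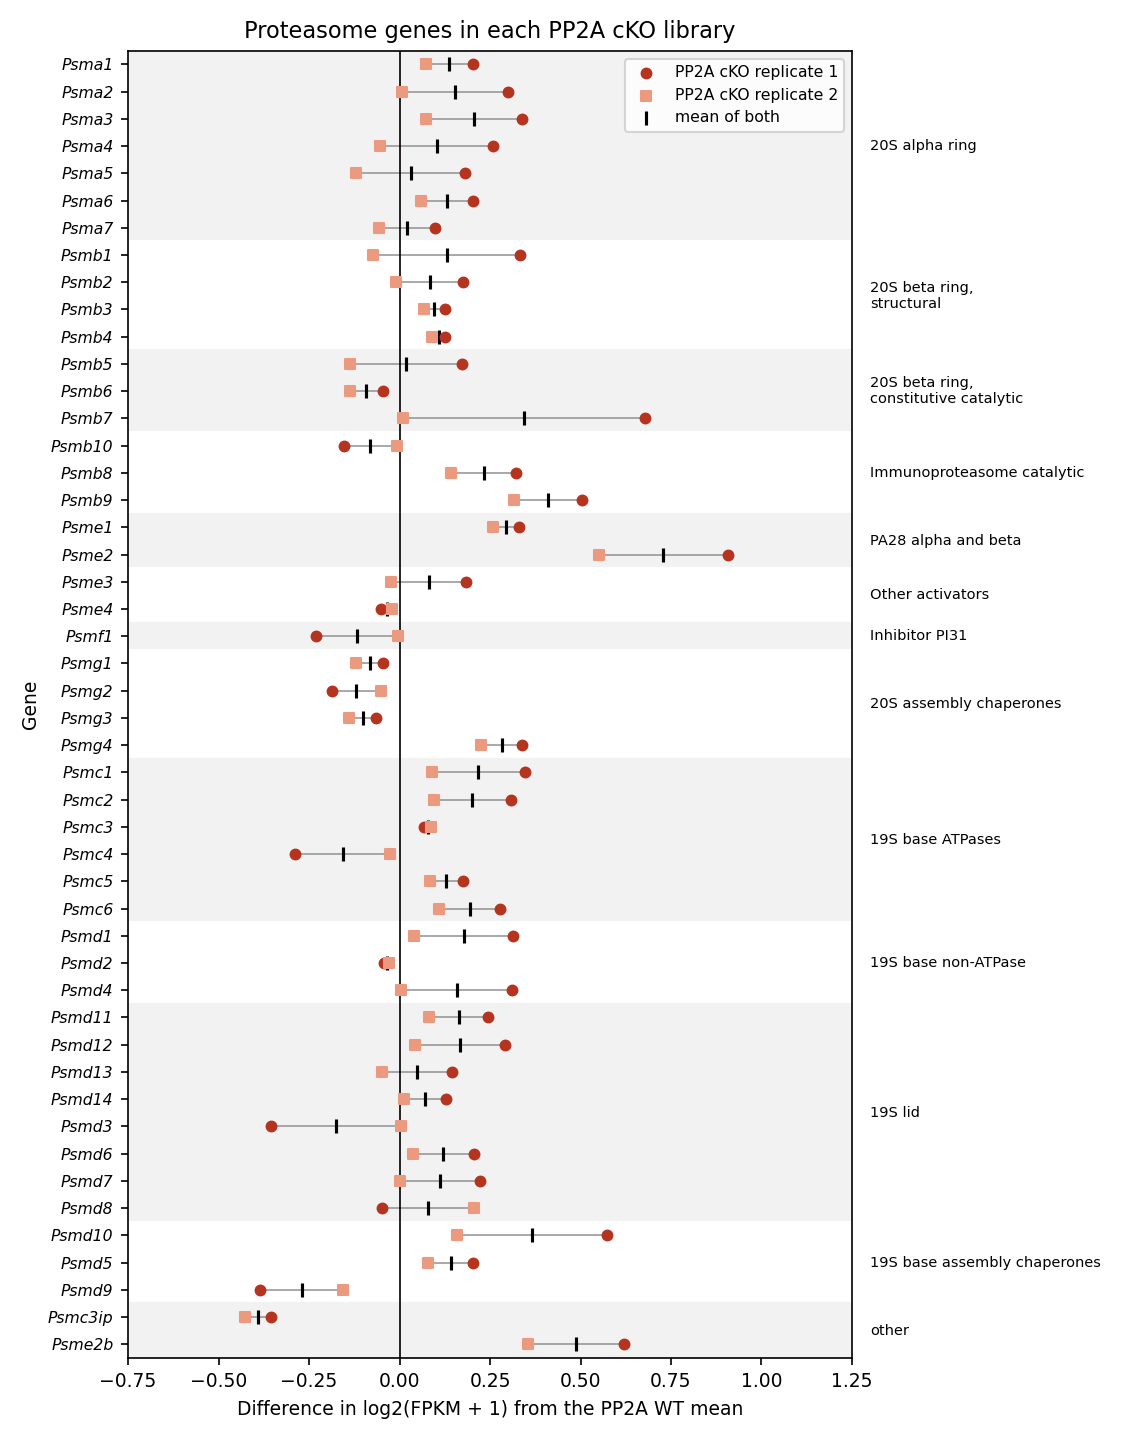
Difference in log2(FPKM + 1) of each PP2A cKO library from the PP2A WT mean for the 48 tested proteasome genes, by role, with circles for replicate 1, squares for replicate 2 and ticks for their mean. Psme2 lies farthest to the right, at 0.91 and 0.55, and for 38 genes replicate 1 is to the right of replicate 2.

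The cKO libraries differed from each other over these genes more than the WT libraries did. The median absolute difference was 0.19 on the log2 scale between the cKO libraries and 0.05 between the WT libraries. Replicate 1 was above replicate 2 in 38 of 48 members (79.2%, against 50.6% of all tested genes), by a median of 0.16 against 0.003 for all. For the 31 constitutive subunits the median change from WT was 0.20 in cKO replicate 1 and 0.01 in replicate 2. The size of their median change therefore rested on replicate 1. In 13 of the 31 both cKO values lay above both WT values, and in 3 they lay under them. Of all tested genes 27.2% and 28.7% did so. The median of the 5 inducible genes stayed positive in replicate 2, as given above. Psmb10 was not positive in either cKO library, and the change of the other 4 was smaller in replicate 2 than in replicate 1. Limma without cKO replicate 2 called 16 members higher and 3 lower (33.3% and 6.25%), in a setting that called 13.2% of all tested genes higher and 15.3% lower and took its spread from the WT pair alone. Without cKO replicate 1, or either WT replicate, 0 were called.

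Transcript GC content (37.0% to 57.4% over the members) moved with that difference. Spearman's rho of cKO replicate 1 minus replicate 2 with GC was -0.32 over the 48 members and -0.53 over all tested genes, whereas for the WT libraries over the members it was 0.15. The points of each correlation share their libraries, and genes are not independent replicates. After a linear correction of each library for GC the median of the members was 0.09 with 36 positive, and no member was called. Psme2 had 0.75 with the correction (limma adjusted p = 0.0804), Psme1 0.35, Psmb9 0.45 and Psmb7 0.25. The part of GC in the other differences was not tested.

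**Figure D5:**
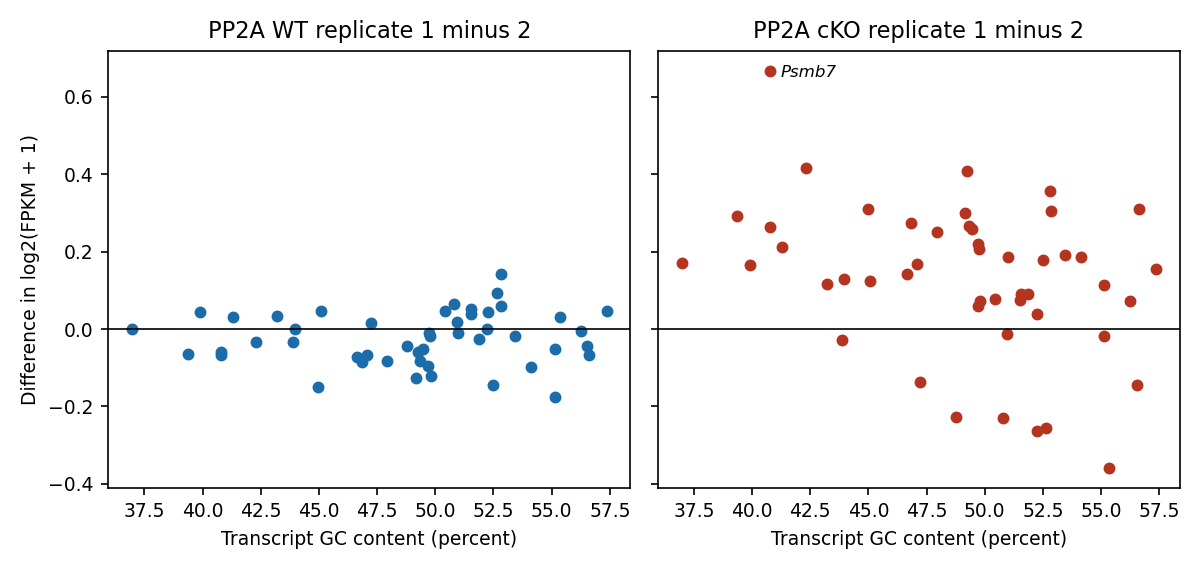
Difference in log2(FPKM + 1) between replicates 1 and 2 of PP2A WT (left) and PP2A cKO (right) against transcript GC content in percent, 1 point for each of the 48 tested proteasome genes. The WT points lie near 0, while 38 of the 48 cKO points are above 0, with Psmb7 at the top at 0.67.

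Genes that work with the proteasome were described from 5 lists. None of 10 tested proteasome-linked genes outside the symbol rule passed the test, with a median log2 fold change of 0.07. The farthest was the small lid subunit Sem1, at 24.7 and 26.8 FPKM in WT and 39.2 and 28.3 in cKO (0.36, limma adjusted p = 0.316). None of 11 ubiquitin, E1 and shuttle receptor genes passed (median 0.08). Rps27a, a ubiquitin fusion gene, had the farthest value, 0.47, with libraries at 118 and 263 FPKM in WT and 327 and 183 in cKO. None of 5 genes that control proteasome gene expression passed (median 0.27). Nfe2l1, the transcription factor that raises proteasome genes when activity falls short, measured 43.7 and 39.98 FPKM in WT and 51.8 and 53.0 in cKO (0.32, adjusted p = 0.172). Ddi2, the protease that cleaves and activates the Nfe2l1 protein, measured 10.8 and 11.3 in WT and 7.97 and 8.12 in cKO (-0.42, adjusted p = 0.0855).

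Of the 8 class I supply genes none passed, with a median log2 fold change of 0.40 and 7 positive. B2m, the light chain of class I molecules, measured 692 and 622 FPKM in WT and 1238 and 1093 in cKO (0.82 ± 0.13, limma adjusted p = 0.0582). Tap1, which shares its promoter region with Psmb9, measured 24.6 and 24.02 in WT and 32.4 and 39.7 in cKO (0.54 ± 0.13, adjusted p = 0.107). Of 5 factors known to induce immunoproteasome genes, Stat2 passed: it measured 3.73 and 3.93 FPKM in WT and 6.59 and 7.03 in cKO (0.69 ± 0.09 on the log2 scale, adjusted p = 0.0491). The median of the 5 was 0.58. Irf9 had 0.58 (adjusted p = 0.0780), Ifng 0.93 (0.0839) and Irf1 0.31 (0.231), with both cKO libraries above both WT libraries for each. The Stat2 call lay at the threshold, and the number called in this list ranged from 0 to 4 over the alternatives.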

How the data were processed

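RNA was measured in 4 libraries, 2 per genotype as the labels give it. The deposited table holds FPKM per gene, which the authors computed from gene counts. The submitters' processing notes name featureCounts 1.5.0-p3, GRCm38 and mm10; for aligner, annotation release and strand setting the sources used here give nothing. Every FPKM value times the deposited gene length was a whole number of steps within 0.01 read (100% of values). Reads were therefore recovered and summed in each library. The totals implied by the FPKM scaling were 19567961 and 19105296 in WT, above these sums, and 20317062 and 19393050 in cKO, below them. With voom, which used the sums, the median log2 fold change was 0.07 over members and -0.04 over all tested genes. Of the gene IDs 99.72% are in GENCODE M21, which gave transcript GC for 99.89% of tested genes, and RefSeq GRCm38.p6 gave the promoter windows. Limma 3.58.1 (R 4.3.3) was fitted to log2(FPKM + 1), pseudocount 1, for 10562 genes (minimum mean 1 FPKM), with a variance trend and no block, cKO minus WT, two-sided; adjusted p-values are Benjamini-Hochberg over all of them, called at 0.05. The scale understates changes of low genes. Values are library values or mean ± SD, and fold changes carry the limma SE. Voom on the recovered reads was an alternative. Ratios were tested by exact permutation. The scripts were tested on simulated data.

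The members, roles and lists were chosen with earlier results of these data known. Given by library are the inducible subunits, their counterparts, every member past the threshold and the highest and lowest fold change of each role; of each related list, members past the threshold or the most changed. Tap1, Irf9, Ifng, Irf1, Nfe2l1 and the non-extreme chaperones were added for their place in the pathway, after their values were seen. A gene of the inducing factors is not reported here by name. 1 listed gene, Paaf1, was not matched by symbol, and Ecpas was matched by its older symbol. Lists of T cell, Th17, B cell, myeloid, class II and CD8 markers were read as levels. The Th17 list held Il17a, at 479 to 757 FPKM, and Cd8a was under 1 FPKM in every library. The coding length of the pair shares and the values of each cKO library alone were alternatives chosen after seeing the data.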

Additional observations from a re-analysis of the deposited data

How the results depend on the processing

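The alternatives were a pseudocount of 0.1 or 5, low values kept or a minimum of 5 FPKM, scaling by TPM, by median-of-ratios factors or by quantiles, no variance trend, robust variance, protein-coding genes only, voom, GC correction, a replicate block without and with GC correction, and omission of each library. The number of members called higher was 1 with protein-coding genes only and with voom, from 0 to 16 on omission of a library, and 0 otherwise; called lower it was 0 to 3 on omission and 0 otherwise. The highest counts came without cKO replicate 2. The reversals listed next are those of the members given by library, and other members reversed too. Over all 48 members, 36 were positive in the main fit, against 27 with TPM, 29 with quantile scaling and 33 with voom. Reversed log2 fold changes were those of Psmb5 (-0.075 with TPM, -0.11 with quantile scaling, -0.020 with voom, -0.14 to 0.17 on omission), Psme3 (-0.012 and -0.051 with TPM and quantile scaling, -0.022 to 0.18 on omission), Psma7 (-0.073, -0.032 and -0.018 with TPM, quantile scaling and voom, -0.058 to 0.10 on omission), Psmb2 (-0.0096 with TPM, -0.0098 to 0.18 on omission), Psmd3 (-0.36 to 0.0031) and Psmb1 (-0.074 to 0.33). TPM scaling moved the median of all tested genes to -0.09, and the TPM reversals go with that common shift. No ratio within a pair reversed. The cause of the other reversals was not tested.

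The replicate block called 0 members in either direction, with Psme2 at an adjusted p of 0.0733 (0.0898 with GC correction). What the replicate numbers stand for is not said in the labels used here. Deviations of same-numbered libraries correlated at -0.093 over genes, in 2 pairs. Each genotype gives a single difference between its libraries, so this value cannot decide whether same-numbered libraries belong together. Of all tested genes the block called 1.46% higher and 0.691% lower, against 0.814% and 0.256% in the main fit.

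Of the related lists, proteasome-linked and ubiquitin genes had 0 to 3 called higher and 0 to 2 lower on omission of a library. Genes controlling proteasome expression had 0 to 2 higher and 0 to 1 lower on omission, and 1 lower (with voom and with GC correction). Class I supply genes had 1 higher with protein-coding genes only and with voom, 2 with GC correction and 0 to 4 on omission. The inducing factors had 4 higher with protein-coding genes only and voom, 3 with GC correction, 2 with the replicate block, 0 to 4 on omission, and 0 with pseudocount 0.1, no filter, TPM, quantile scaling, no variance trend, robust variance and the block with GC correction. The share of all tested genes called higher was 2.81% with protein-coding genes only, 2.52% with voom, 2.14% with GC correction, 1.46% with the block, 0.161% with the block and GC correction, and 0.464% to 13.2% on omission. Called lower it was 3.33% with voom, 2.18% with GC correction and 0.0568% to 15.3% on omission. With pseudocount 0.1, 0.625% of all tested genes were called higher, with TPM 0.492% and with quantile scaling 0.663%. Without a variance trend and with robust variance it was 0.767% each. With low values kept, 0 of 21807 genes were called in either direction, so the 0 of each list there was that of every gene. The filter at a mean of 1 FPKM left out Psma8 and Psmb11. Each tested member had at least 254 reads in a library.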
